A study of Mus musculus with 10 samples.

Results

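The HMGN genes code for a small family of high mobility group proteins that bind nucleosomes, and 4 of them, Hmgn1, Hmgn2, Hmgn3 and Hmgn5, were followed here in the hippocampus of Dp1Tyb mice, a model of Down syndrome (DS). They were found by matching their symbols to the Ensembl IDs of the count table with an annotation of GRCm38, which gave 4 genes of 43629 in all. RNAseq had been carried out on whole hippocampus from 5 Dp1Tyb and 5 wild-type (WT) mice, 1 library per mouse, all labelled as 18 weeks old on the strain C57BL/6J.129P2. Dp1Tyb mice carry the duplication Dp(16Lipi-Zbtb21)1TybEmcf, so that a stretch of chromosome 16 from Lipi to Zbtb21, with many of the mouse counterparts of human chromosome 21 genes, is present in 3 copies, whereas WT mice carry no altered allele. The methods of the study describe the mice as male littermates. Of the 4 genes, Hmgn1 alone lies in the duplicated segment, and the question addressed was whether its extra copy was accompanied by lower expression of the 3 paralogs. Every other gene of the segment is duplicated in the same mice, so effects of Hmgn1 dosage and of the other duplicated genes cannot be told apart.

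HMGN proteins bind the nucleosome core through a short, positively charged domain, compete with linker histone H1 for chromatin and loosen its compaction. HMGN1 and HMGN2 are found in most cell types, and HMGN3 is a variant with a more restricted distribution that is known from glial and endocrine cells. HMGN5 carries a long acidic tail. Because HMGN1 and HMGN2 occupy overlapping chromatin sites and can partly replace each other, a change in the dose of one raises the question of whether the others shift.

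The coding sequence of the nucleosome-binding domain shows how closely the members are related. The stretch of 60 bases that was most alike in all 4 is printed from the GENCODE M21 transcripts, 5′ to 3′, with capitals marking the 29 positions that are identical in every member.
Hmgn1: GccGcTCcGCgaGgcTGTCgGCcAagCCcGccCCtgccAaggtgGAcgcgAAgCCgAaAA
Hmgn2: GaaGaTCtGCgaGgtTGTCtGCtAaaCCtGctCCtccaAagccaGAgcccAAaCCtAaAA
Hmgn3: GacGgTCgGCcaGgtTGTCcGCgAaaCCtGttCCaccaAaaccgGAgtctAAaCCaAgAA
Hmgn5: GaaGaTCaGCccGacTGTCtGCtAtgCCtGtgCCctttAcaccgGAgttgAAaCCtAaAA

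In each of the 4 genes this stretch is split by an intron after its first 23 bases, so that 23 bases lie in exon 3 and 37 in exon 4. For Hmgn1 (ENSMUSG00000040681, minus strand) the pieces are at chr16:96127311-96127333 and chr16:96127167-96127203 of GRCm38. For Hmgn2 (ENSMUSG00000003038, minus strand) they are at chr4:133966766-133966788 and chr4:133966443-133966479. For Hmgn3 (ENSMUSG00000066456, minus strand) they are at chr9:83114773-83114795 and chr9:83112234-83112270, and for Hmgn5 (ENSMUSG00000031245, minus strand) at chrX:109010857-109010879 and chrX:109010571-109010607. Hmgn2 and Hmgn3 were the closest pair within the stretch, with 46 of 60 bases identical, and Hmgn1 and Hmgn5 the most distant, with 34 of 60. Outside it the coding sequences differ in length, at 291 bases for Hmgn1, 273 for Hmgn2, 288 for Hmgn3 and 1221 for Hmgn5. No 75-base window of a member's transcript, the read length used, occurred in another member with at most 2 mismatches.

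Copies of the members elsewhere in the genome were searched for as well, because reads that aligned to several places had been discarded before counting. Among all annotated transcripts, 85.3% of the 75-base windows of the longest complete coding transcript of Hmgn2 occurred with at most 2 mismatches in another gene, 23 genes in all. Over the distinct windows of all annotated transcripts of Hmgn2 the share was 30.9%. These windows stand for single reads, whereas the libraries were sequenced in pairs. Processed pseudogenes are intronless copies of an mRNA, and 2 of them, Hmgn2-ps1 and Gm10182, match Hmgn2 at 100% over 279 and 273 bases. In the longest complete coding transcript, the share of such windows was 23.3% for Hmgn5, 7.29% for Hmgn1 and 0% for Hmgn3. Annotated pseudogenes that match a member over most of their length numbered 28 for Hmgn2, 14 for Hmgn1, 3 for Hmgn5 and 0 for Hmgn3. Few reads were assigned to them: over the 10 samples the pseudogenes of Hmgn2 in the count table held 139 counts, which is 1.18% of the 11791 counts of Hmgn2 itself. Gm10282, a copy annotated as protein coding and picked out after its values were seen, held a further 143 counts. The pseudogenes with at least 10 counts were Gm10182 (62), Gm10357 (37) and Gm12196 (12) for Hmgn2, Gm15807 (27) and Gm11914 (23) for Hmgn5, and Gm7862 (12) for Hmgn1. Adding the pseudogene reads to the members left the log2 fold changes at 0.48 for Hmgn1, −0.14 for Hmgn2 and 0.03 for Hmgn5. How many reads of each member had been discarded as aligning to several places is not known, so the level of Hmgn2 in particular is uncertain. Hmgn3 also overlaps 2 genes on the other strand, Gm29054 and Gm2065, which held 126 and 470 counts over all samples against 8255 for Hmgn3. The strand setting of the counting is not given in the sources used here, so reads of these genes and of Hmgn3 cannot be told apart where they overlap. The small nuclear RNA gene Gm23322 lies within Hmgn5 without sharing exon bases and held 5 counts.

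All 4 members passed the filter on low counts. Library totals ranged from 18227684 to 43692270 counts, and each member had at least 200 counts in every library. The 24 marker genes of neurons, glia, vessels and choroid plexus that were looked at were detected in each library, with neuronal markers such as Camk2a at 4253 ± 356 counts-per-million (CPM) in WT (SD, n = 5). Choroid plexus, an epithelium that adjoins the hippocampus, differed in amount between libraries: its 8 markers summed to between 417 and 5337 CPM in WT and between 36.9 and 3819 CPM in Dp1Tyb. Ttr weighed most in these sums, with means of 3247 CPM in WT and 1637 CPM in Dp1Tyb. The next highest marker, Kl, had 157 and 85 CPM. Dp1Tyb replicate 1, Dp1Tyb replicate 4 and WT replicate 2 had the lowest sums, at 36.9, 44.7 and 417 CPM. None of the 8 markers was at 0 counts in any library, all 8 had lower means in Dp1Tyb with none past the test in edgeR, DESeq2 or limma-voom and 0 at an unadjusted p under 0.05 in edgeR, and their median log2 fold change was −0.95. Of the 8 neuronal markers, Gad2 was differentially expressed (0.34 ± 0.074 SE on the log2 scale, edgeR adjusted p = 0.0410), while Gad1 (0.21) and Prox1 (−0.18) did not pass in edgeR after adjustment and Gad1 did in DESeq2. Of the 8 glial and vessel markers, Gfap was differentially expressed (0.26 ± 0.047 SE, edgeR adjusted p = 0.0167), while Aqp4 (0.22) and Cldn5 (−0.20) did not pass in edgeR after adjustment and Aqp4 did in DESeq2. Results below that depend on these 3 libraries are also given without them, a choice made after seeing the data. In whole tissue, fewer cells that express a gene and less of its mRNA per cell cannot be told apart.

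Expression of Hmgn1, the duplicated member, was higher in every Dp1Tyb mouse than in any WT mouse. The WT values for replicates 1 to 5 were 40.7, 41.1, 37.5, 38.4 and 45.5 CPM. In the Dp1Tyb mice they were 54.6, 56.9, 57.3, 56.9 and 57.0 CPM. Relative to the WT mean, single Dp1Tyb mice stood between 1.34-fold and 1.41-fold, while the WT mice spread from 0.922-fold to 1.12-fold. The log2 fold change was 0.48 ± 0.051 SE (edgeR, adjusted p = 0.000149, n = 5 per genotype), a fold change of 1.39, with a 95% interval of 0.37 to 0.59 on the log2 scale. The log2 ratio of 3 copies to 2, which is 0.585, lay at the upper end of this interval. Hmgn1 was the only member of the family that was differentially expressed, and the only one whose genotypes did not overlap. Among all 17237 tested genes, 1.11% were differentially expressed, 0.87% being higher and 0.238% lower in Dp1Tyb, and 3.68% had no overlap between the genotypes. For Hmgn1 alone, permuting the genotypes over mice gave p = 0.00794 (exact, two-sided), which is the lowest value possible for 5 against 5. The increase held in each of the 10 fits that left out 1 mouse, with log2 fold changes of 0.45 to 0.52.

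**Figure D1:**
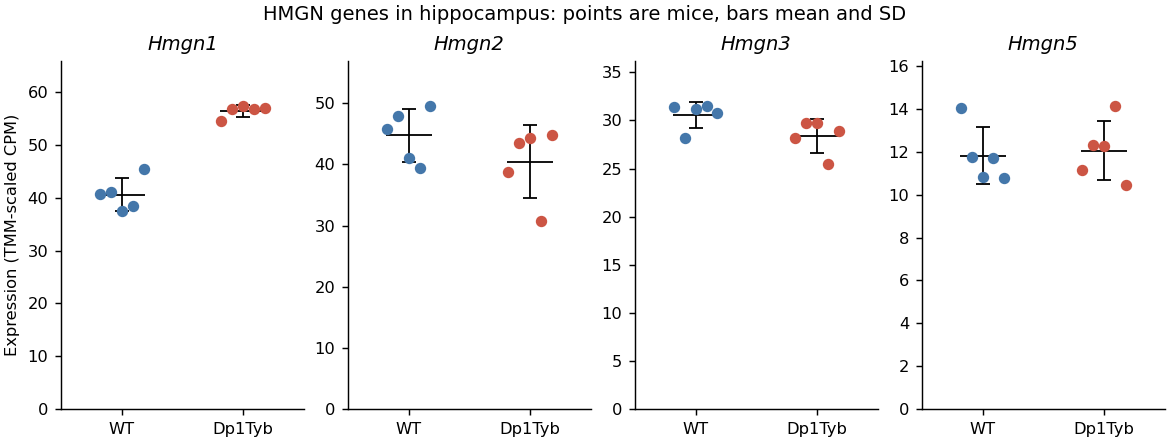
Expression of Hmgn1, Hmgn2, Hmgn3 and Hmgn5 in CPM (y axes start at 0) in 5 WT and 5 Dp1Tyb hippocampi. Points are single mice, horizontal bars the mean and vertical bars the SD. Hmgn1 is separated by genotype, from 37.5 to 45.5 CPM in WT and from 54.6 to 57.3 CPM in Dp1Tyb, and the other 3 overlap.

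The increase in Hmgn1 was set beside that of other duplicated genes. Of 114 tested genes in the segment, 59.6% were differentially expressed and higher, and their median log2 fold change over all 114 was 0.53. Hmgn1, at 0.48, ranked at position 69 of 114. Its neighbours on both sides were also raised. Brwd1, which codes for a bromodomain protein that reads acetylated histones, starts at −45.2 kb from the start of Hmgn1 and rose from 133 ± 5.98 to 193 ± 12.3 CPM (SD, n = 5; log2 fold change 0.54 ± 0.047 SE, edgeR adjusted p = 2.23e-05). Wrb, which codes for a receptor for the insertion of tail-anchored membrane proteins, starts 17.7 kb distal and had the larger difference, at 0.68 ± 0.041 SE on the log2 scale (edgeR, adjusted p = 7.47e-07). The 95% interval of Wrb, 0.59 to 0.76 on the log2 scale, lay just above that of Hmgn1, 0.37 to 0.59, but the difference between the genes was not tested. Psmg1, a proteasome assembly chaperone, the transcription factor Ets2 and the glycosyltransferase B3galt5 had log2 fold changes of 0.55, 0.53 and 0.45 and were all differentially expressed.

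Not all genes around Hmgn1 passed the test. Of the 5 tested genes nearest on each side, 5 were differentially expressed and 5 were not. Lca5l and Sh3bgr, at 64.5 and 72.7 kb distal, had log2 fold changes of 0.38 ± 0.11 SE and 0.75 ± 0.18 SE (edgeR, adjusted p = 0.148 and 0.0634). Igsf5 had 0.19 ± 0.40 SE at under 1 CPM in both genotypes. Farther proximal, the endothelial transcription factor Erg had 4.90 ± 0.719 CPM in WT and 4.92 ± 0.281 CPM in Dp1Tyb, which on the log2 scale is −0.0022 ± 0.11 SE (edgeR, adjusted p = 0.995), and Gm7976 had −0.03 ± 0.20 SE.

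**Figure D2:**
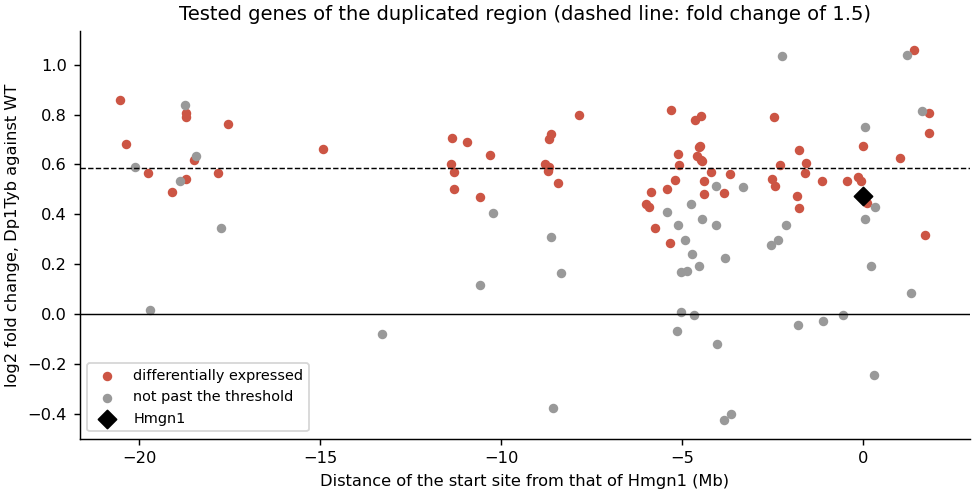
Log2 fold change (Dp1Tyb against WT) of the 114 tested genes of the duplicated segment, plotted by the distance of their start sites from that of Hmgn1 in Mb. Red points are differentially expressed, grey points are not, the diamond is Hmgn1 at 0.48, and the dashed line marks the ratio of 3 copies to 2.

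None of the 3 paralogs outside the segment was differentially expressed in edgeR, DESeq2 or limma-voom. Of the 17123 tested genes outside the segment, 0.718% were differentially expressed in edgeR. None of the 3 had an unadjusted p under 0.05 in edgeR, beside 14.4% of all tested genes. Hmgn2, the closest functional relative of Hmgn1, lies on chromosome 4. Its WT values were 45.8, 47.9, 41.0, 39.5 and 49.5 CPM, and its Dp1Tyb values were 38.8, 43.5, 44.4, 30.7 and 44.9 CPM. The ranges overlapped, and 3 of the 5 Dp1Tyb mice lay within the WT range while replicates 1 and 4 lay below it. The log2 fold change was −0.15 ± 0.098 SE (edgeR, adjusted p = 0.516), with a 95% interval of the fold change from 0.779 to 1.05. Without Dp1Tyb replicate 4, the lowest of all 10 mice, the log2 fold change was −0.06.

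Hmgn3, on chromosome 9, had a narrower spread. Its WT values were 31.4, 28.2, 31.2, 31.5 and 30.7 CPM, and its Dp1Tyb values were 28.2, 29.7, 29.7, 25.4 and 28.9 CPM. WT replicate 2 lay within the Dp1Tyb range, while the other 4 WT mice lay above all 5 Dp1Tyb mice. The log2 fold change was −0.11 ± 0.055 SE (edgeR, unadjusted p = 0.0673, adjusted p = 0.386), with an interval of the fold change from 0.854 to 1.01. An exact two-sided permutation test on log2 CPM of this gene gave p = 0.0476, unadjusted. The same permutation test gave p = 0.246 for Hmgn2 and p = 0.738 for Hmgn5. Unadjusted p-values under 0.05 in edgeR were found for 14.4% of all tested genes. The difference was −0.07 without Dp1Tyb replicate 4.

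Hmgn5, on the X chromosome, was the least abundant and showed the smallest difference. It had 14.0, 11.8, 10.8, 11.7 and 10.8 CPM in WT and 11.1, 12.3, 12.3, 14.1 and 10.4 CPM in Dp1Tyb. The genotypes covered nearly the same range, and the highest value was in WT replicate 1 on one side and Dp1Tyb replicate 4 on the other. The log2 fold change was 0.03 ± 0.096 SE (edgeR, adjusted p = 0.927), with an interval of the fold change from 0.882 to 1.17. Its sign was not stable, being negative without WT replicate 3, WT replicate 5 or Dp1Tyb replicate 4 and in both fits that took choroid plexus into account.

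The low values of Hmgn2 and Hmgn3 in Dp1Tyb coincided in part with the libraries that held little choroid plexus. Dp1Tyb replicates 1 and 4, with the smallest sums of choroid plexus markers, also had the lowest Hmgn2 and Hmgn3 of their genotype. WT replicate 2, the third of these libraries, had the lowest Hmgn3 of the WT mice but the second highest Hmgn2. When the 3 libraries were left out, which kept 4 WT and 3 Dp1Tyb mice, the log2 fold change of Hmgn2 was 0.0039 ± 0.075 SE (edgeR, adjusted p = 0.994). That of Hmgn3 was −0.09 ± 0.054 SE (edgeR, adjusted p = 0.571), with 30.8 to 31.6 CPM in WT and 28.8 to 29.8 CPM in Dp1Tyb. These ranges no longer overlapped, but WT replicate 2, the only WT mouse within the Dp1Tyb range of Hmgn3, was among those left out. The share of all genes without overlap in this subset was not determined. Hmgn1 kept its increase, at 0.49 ± 0.066 SE (edgeR, adjusted p = 0.00316). With the choroid plexus level as a covariate in all 10 samples, the log2 fold changes were 0.48 for Hmgn1, −0.07 for Hmgn2, −0.05 for Hmgn3 and −0.03 for Hmgn5, and only Hmgn1 was called. The part of choroid plexus content in the values of Hmgn2 and Hmgn3 was not tested beyond these fits.

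**Figure D3:**
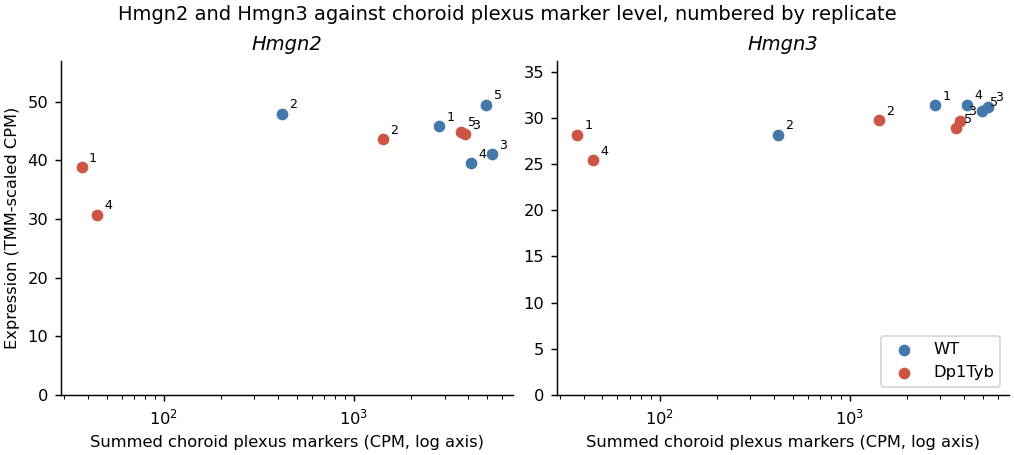
Expression of Hmgn2 and Hmgn3 (CPM, y axes start at 0) against the summed level of 8 choroid plexus markers (CPM, log axis) in each mouse, coloured by genotype and numbered by replicate. Dp1Tyb replicates 1 and 4, at 36.9 and 44.7 CPM of choroid plexus markers, have the lowest Hmgn2 and Hmgn3 among the Dp1Tyb mice.

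To compare levels between members, CPM were divided by the length of all exons of each gene, giving RPKM, that is CPM per kilobase. In WT hippocampus Hmgn3 had 16.4 ± 0.731 RPKM, Hmgn2 14.6 ± 1.42, Hmgn1 12.6 ± 0.968 and Hmgn5 6.11 ± 0.680 (SD, n = 5). Neighbours in this order overlapped over mice, with Hmgn3 at 15.1 to 16.8 RPKM, Hmgn2 at 12.9 to 16.2 and Hmgn1 at 11.6 to 14.1, whereas Hmgn5, at 5.57 to 7.25, lay apart. In Dp1Tyb the order differed, with Hmgn1 first at 17.6 ± 0.341 RPKM, then Hmgn3 at 15.2 ± 0.954, Hmgn2 at 13.2 ± 1.95 and Hmgn5 at 6.24 ± 0.722. All 5 Dp1Tyb mice had more Hmgn1, at 17.0 to 17.8 RPKM, than the highest Hmgn3 value among them, 15.9 RPKM. The place of Hmgn2 in these orders depends on how length is counted. With length as the number of distinct 75-base windows over all annotated transcripts of a gene that no other gene holds, 2510 for Hmgn2, the WT levels were 17.8 RPKM for Hmgn2, 14.0 for Hmgn3, 13.4 for Hmgn1 and 8.29 for Hmgn5. With such windows from the longest complete coding transcript alone, 175 for Hmgn2, they were 256 RPKM for Hmgn2, 23.2 for Hmgn3 and 20.9 for Hmgn1. The latter value for Hmgn2 is too high by construction, because reads from all its exons were divided by the windows of 1 transcript, and the former also counts windows of transcripts with retained introns. Lengths of the longest transcript left the order in WT as it was.

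The levels of the members were then summed in RPKM, to set the paralogs together beside Hmgn1. The 3 paralogs together came to 37.1 ± 1.45 RPKM in WT and 34.6 ± 2.44 RPKM in the Dp1Tyb mice (SD), a difference of −2.46 RPKM. In the same mice the level of Hmgn1 differed by 4.93 RPKM. Single mice ranged from 35.7 to 39.0 RPKM in WT and from 30.9 to 36.8 RPKM in Dp1Tyb, so the paralog sums overlapped, with Dp1Tyb replicate 4 the lowest at 30.9. Without that mouse the difference was −1.53 RPKM, and without the 3 libraries poor in choroid plexus it was −0.915 RPKM. The sum over all 4 members was 49.7 ± 2.23 RPKM in WT and 52.2 ± 2.57 RPKM in Dp1Tyb, with overlapping ranges of 47.4 to 52.3 and 48.6 to 54.6. Hmgn1 made up 25.4 ± 1.05% of the family in WT and 33.7 ± 1.54% in Dp1Tyb, and the lowest Dp1Tyb share, 32.6%, was above the highest WT share, 27.0%. These sums are descriptions with no test, and they rest on the lengths. With the windows free of copies over all transcripts, the sum over all 4 members was 53.6 RPKM in WT and 56.2 in Dp1Tyb, the paralog difference was −2.56 RPKM, and the Hmgn1 share was 33.2% in Dp1Tyb, 8.19 percentage points above WT. With those of 1 coding transcript, where Hmgn2 carries too much weight, the sum turned direction, from 308 RPKM in WT to 290 in Dp1Tyb, the paralog difference was −26.0 RPKM, and the Hmgn1 share was 6.78% and 10.1%. With lengths of the longest transcript, the sum was 67.5 RPKM in WT and 71.4 in Dp1Tyb. The mean sum was thus higher in Dp1Tyb with each length except that of 1 coding transcript. Because the genotypes overlapped with every length and no test was run, the direction of the family sum is not settled by these data. Since CPM and RPKM are relative to the library, a change in total mRNA per cell is not visible in them.

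**Figure D4:**
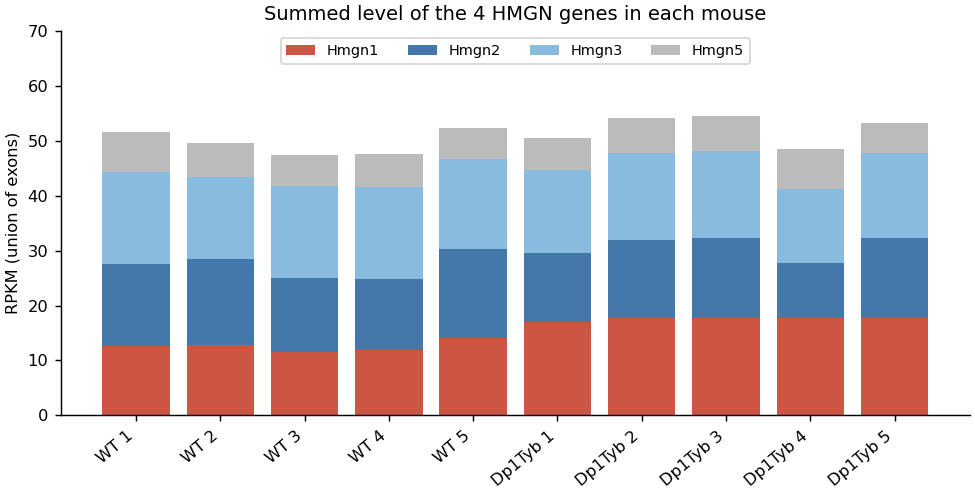
Level of Hmgn1, Hmgn2, Hmgn3 and Hmgn5 in RPKM (union of exons), stacked for each of the 10 mice from an axis that starts at 0. The Hmgn1 part is 11.6 to 14.1 RPKM in WT and 17.0 to 17.8 RPKM in Dp1Tyb, while the stack totals of the genotypes overlap.

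The members also differed in how far they varied within a genotype. The SD of log2 CPM within genotypes was 0.079 for Hmgn1 and 0.081 for Hmgn3, below the median of 0.131 over all tested genes. It was 0.191 for Hmgn2 and 0.159 for Hmgn5, above that median. This SD includes counting noise, which is larger at low counts, and the median covers genes of all levels. Counts per library were 691 to 2382 for Hmgn1, 576 to 1229 for Hmgn3, 757 to 1694 for Hmgn2 and 200 to 486 for Hmgn5. After the genotype mean was taken away, the 3 of 11912 genes that followed Hmgn2 most closely over the 10 mice were Mettl7a1, Camk2n1 and Dynlrb1, with Pearson correlations of 0.989, 0.982 and 0.980. For Hmgn1 they were Lsm1, Ipo8 and Zfp324 (0.949, 0.922 and 0.919), for Hmgn3 Aurkaip1, Mrps2 and Gm4294 (0.939, 0.936 and 0.930), and for Hmgn5 Ddx52, Zfr and Cep97 (0.945, 0.935 and 0.928). These genes are the highest of many over the same 10 libraries, which differ in depth and in choroid plexus content. The values are therefore a description. No paralog was among the 3 for another member, which does not show how the members varied together. Between members, the same correlations were 0.49 for Hmgn1 with Hmgn2, −0.12 for Hmgn1 with Hmgn3 and 0.0011 for Hmgn1 with Hmgn5. They were 0.51 for Hmgn2 with Hmgn3, −0.42 for Hmgn2 with Hmgn5 and −0.31 for Hmgn3 with Hmgn5, and were not tested.

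Linker histone H1 genes, whose products compete with HMGN proteins for nucleosomes, were looked at next. Of 10 such genes, 4 were tested and none was differentially expressed in edgeR, DESeq2 or limma-voom, with 0 at an unadjusted p under 0.05 in edgeR. Over all tested genes these shares in edgeR were 1.11% and 14.4%, which also stand beside the lists below. H1f0, a linker histone of non-dividing cells, had 102 ± 4.44 CPM in the WT and 98.6 ± 5.20 CPM in the Dp1Tyb mice (SD, log2 fold change −0.05 ± 0.044 SE). The values for H1fx, Hist1h1c and Hist1h1e were −0.45 ± 0.27, −0.12 ± 0.13 and −0.02 ± 0.31 (SE), and 6 others had between 1 and 22 counts over all samples. The median over the 4 was −0.08, beside −0.0041 over all tested genes. Replication-dependent histone mRNAs lack a poly(A) tail and are poorly captured in poly(A) libraries.

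Other high mobility group genes gave a similar count, with 0 of 10 tested genes differentially expressed by the same 3 tools, 0 at an unadjusted p under 0.05 in edgeR, 5 higher and 5 lower in Dp1Tyb, and a median log2 fold change of −0.02. Hmgb1, the most studied HMG-box protein, had 56.8 ± 2.08 CPM in WT and 54.9 ± 4.70 CPM in Dp1Tyb. Hmga1, which binds AT-rich DNA, had 20.5 ± 1.79 and 18.9 ± 2.72 CPM. Ssrp1, a subunit of the histone chaperone FACT, had 112 ± 4.51 and 113 ± 4.46 CPM (log2 fold change 0.0034 ± 0.039 SE). The widest of these intervals, that of Hmgb2, ran from −0.34 to 0.41 on the log2 scale.

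**Figure D5:**
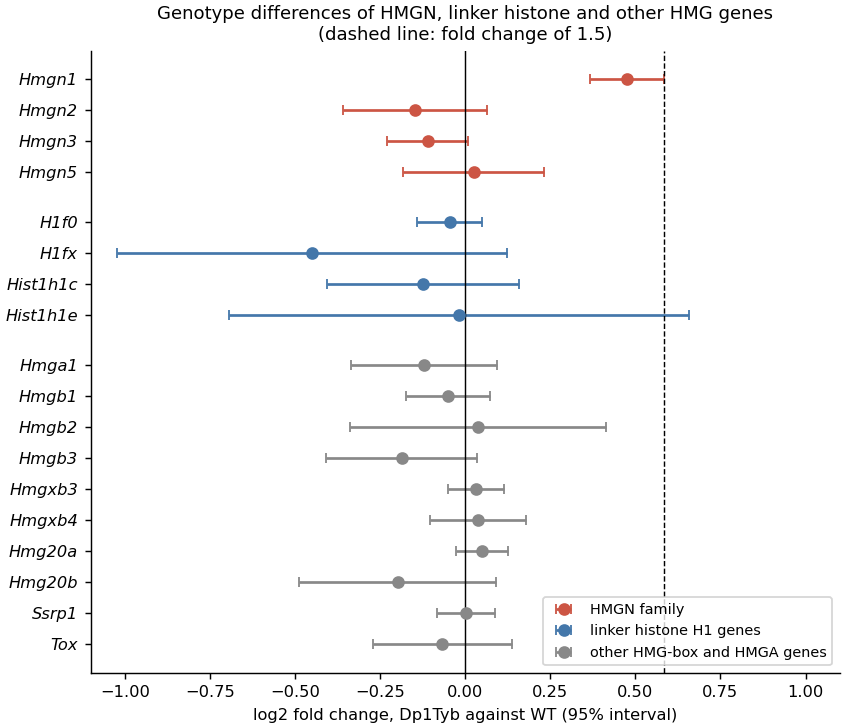
Log2 fold change (Dp1Tyb against WT) with its 95% interval for the 4 HMGN genes, the 4 tested linker histone genes and the 10 tested other HMG genes. The interval of Hmgn1 lies above 0, from 0.37 to 0.59, ending at the dashed line drawn for 3 copies against 2. All 17 other intervals include 0.

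Enzymes known to phosphorylate, dephosphorylate or acetylate HMGN proteins gave 0 of 8 differentially expressed genes by these tools, and 1 at an unadjusted p under 0.05 in edgeR. Over all tested genes, 1.11% were differentially expressed in edgeR, 14.4% had an unadjusted p under 0.05 and 3.68% had no overlap between the genotypes. Rps6ka5, the kinase MSK1 that phosphorylates HMGN1 on signalling, had 22.3 ± 1.76 CPM in WT and 25.4 ± 2.94 CPM in Dp1Tyb (log2 fold change 0.19 ± 0.082 SE, edgeR adjusted p = 0.309), with no overlap between the genotypes. The acetyltransferase Ep300 had a log2 fold change of −0.08 ± 0.051 SE and the kinase Rps6ka3 one of 0.01 ± 0.062 SE.

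Genes whose expression or products have been tied to HMGN proteins gave 0 of 11 differentially expressed genes in edgeR and limma-voom and 1, Olig2, in DESeq2, with 2 at an unadjusted p under 0.05 in edgeR. The shares over all tested genes in edgeR were 1.11% differentially expressed and 14.4% at an unadjusted p under 0.05, and 3.68% had no overlap. Slc6a9, a glycine transporter known as a target of HMGN3, had a log2 fold change of −0.03 ± 0.064 SE. Olig2, an oligodendrocyte transcription factor that is itself duplicated, had 21.8 ± 1.67 and 26.9 ± 2.24 CPM (log2 fold change 0.30 ± 0.070 SE, adjusted p = 0.0618 in edgeR) with no overlap between the genotypes, and its neighbour Olig1 had a log2 fold change of 0.17 ± 0.11 SE. Junb, an immediate early gene, differed by −0.38 ± 0.14 SE on the log2 scale (edgeR, adjusted p = 0.263) with a wide WT spread of 29.2 ± 6.99 CPM. The Polycomb genes Ezh2, Eed and Suz12 had log2 fold changes of −0.02, −0.07 and −0.02. Nucleosome remodellers gave 0 of 10 differentially expressed genes by all 3 tools and 1 at an unadjusted p under 0.05 in edgeR, with a median log2 fold change of 0.00045 and a range from −0.11 for Arid1a (edgeR, adjusted p = 0.307) to 0.08 for Smarca5.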

How the data were processed

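RNAseq libraries of total RNA were made by the authors with a stranded mRNA kit. According to the methods and the submitters' processing notes, reads were trimmed with Trim Galore, mapped to GRCm38 with TopHat2 2.0.12, and counted per gene with HTSeq after reads with several alignments had been discarded. The deposited counts are whole reads per gene, not normalized, with 18227684 to 43692270 per sample. The deposited normalized table (counts divided by size factors) and the authors' own DESeq2 1.6.3 comparison (fold changes and p-values) were not used. The replicate labels name separate mice, and no 2 libraries were alike within sampling noise (smallest chi-square per degree of freedom 4.68 over 45 pairs).

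Genotypes were compared with edgeR 4.0.16 in R 4.3.3 (quasi-likelihood F-test, filterByExpr, TMM, no covariates, Benjamini-Hochberg over 17237 genes, threshold 0.05), which was tested on simulated data. Standard errors come from the test statistic and 95% intervals from the moderated degrees of freedom. CPM use TMM factors, and RPKM the union of exons in GENCODE M21. Annotated pseudogenes were matched with blastn 2.17.0 at 80% identity over at least 50% of their length. Alternatives used DESeq2 1.42.0 and limma 3.58.1, other scaling, no filter, a replicate block, a choroid plexus covariate, added pseudogene reads and single mice left out, and, added after seeing the data, 3 libraries poor in choroid plexus left out and lengths without copies. The members and gene lists were chosen with earlier results of these data known. Named genes were the members, list genes (those with an unadjusted p under 0.05 and others as examples), overlapping genes, pseudogenes with at least 10 counts, the 5 nearest tested genes on each side of Hmgn1, and the 3 genes at 5 CPM or more most correlated with each member. Some list genes that the rule allows are not reported here.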

Additional observations from a re-analysis of the deposited data

Results flagged for a closer look

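In 12 groups of 5 mice (4 members, the paralog sum and the Hmgn1 share, in each genotype), the distance of the most extreme mouse from its nearest neighbour was divided by the whole range. A total of 3 mice stood apart, where chance alone gives 0.6. The 12 groups are not independent, since the paralog sum and the Hmgn1 share are computed from the same members, and an excess over chance was not tested. Hmgn1 in Dp1Tyb replicate 1 was 54.6 CPM, against 56.9 to 57.3 CPM in the other Dp1Tyb mice, a gap of 0.823 of the range, which was itself narrow. Hmgn3 in WT replicate 2 was 28.2 CPM, against 30.7 to 31.5 CPM in the other WT mice, a gap of 0.778 of the range. The Hmgn1 share of the family in Dp1Tyb replicate 4 was 36.3%, against 32.6% to 33.6% in the other Dp1Tyb mice, a gap of 0.736 of the range. These are the 3 libraries with the lowest choroid plexus marker levels, at 36.9, 417 and 44.7 CPM in the order given, and the part of that tissue in the 3 values was not tested.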

How the results depend on the processing

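Hmgn1 was called in all 10 alternative settings (0.47 to 0.49 on the log2 scale) and in the 10 fits without 1 mouse. Hmgn2, Hmgn3 and Hmgn5 were called in none. Without 1 mouse, Hmgn2 ranged from −0.19 to −0.06, Hmgn3 from −0.14 to −0.07 and Hmgn5 from −0.04 to 0.10. The sign of Hmgn5 turned with the choroid plexus covariate (−0.031), without WT replicate 3 (−0.0029), WT replicate 5 (−0.0060) or Dp1Tyb replicate 4 (−0.042), and without the libraries poor in choroid plexus (−0.032). The last setting also turned Hmgn2, to 0.0039. The cause was not tested. The paralog difference was −1.53 to −2.99 RPKM without 1 mouse and −26.0 with the windows free of copies of 1 coding transcript, a length that divides whole-gene counts by part of the gene and changes both the transcript and the copies counted. With windows free of copies over all transcripts it was −2.56.

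The number of differentially expressed genes was 191 (150 higher and 41 lower). It was 507 with DESeq2, 108 without the libraries poor in choroid plexus, and 105 to 218 without 1 mouse, with the lowest counts without WT replicate 4 (105), Dp1Tyb replicate 2 (105), Dp1Tyb replicate 3 (111) and WT replicate 5 (127). With the replicate number as a block it was 315, of which 183 were shared with the 191. The labels give no meaning to the numbers, and the deviations of same-numbered mice correlated between −0.0762 and 0.266, so the numbers were not taken to pair the mice. Only 1 of the 10 mice correlated best with its own number. No member changed its call under the block. With 5 mice per genotype, changes of the paralogs inside the intervals given were not resolved.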
